A study of Mus musculus with 16 samples.

Results

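The RNAs described are those of *Apc*, *Axin1*, *Ctnnb1*, *Gsk3a*, *Gsk3b* and *Csnk1a1*, which encode the core proteins of the β-catenin destruction complex and the β-catenin protein itself. They were chosen by name, all 6 were among the 12900 RNAs of the deposited table, and each of them had reads in all 16 samples. RNA-Seq had been done on NIH/3T3 cells, an established line of mouse fibroblasts, from which protrusions (Ps) and cell bodies (CB) were isolated separately. The comparison asks where in the cell each RNA of the complex was found, and whether its distribution differed once a protrusion-targeting 3′UTR was expressed as a competitor.

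Both lines carried a lentiviral, doxycycline-inducible construct with the coding sequence of human β-globin and were selected with geneticin. In HBB cells, the controls, this sequence was followed by the β-globin 3′UTR, and in Pkp4 cUTR cells by the mouse *Pkp4* 3′UTR. All cells received 1 μg/ml doxycycline for 3 days, were starved of serum, spent 2 h on filters with 3 μm pores and were exposed to lysophosphatidic acid (LPA) under the filter for 1 h before fixation in 0.3% paraformaldehyde for 10 min. Protrusions from the underside and cell bodies from the upper side came from separate filters. The design gave 4 groups (HBB Ps, HBB CB, Pkp4 cUTR Ps, Pkp4 cUTR CB) of 4 replicates each. Whether each line is a clone or a pool of transduced cells is not given in the sources used here, and any difference between the lines rests on a single line of each kind.

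β-catenin acts both at cadherin junctions and as a coactivator of TCF/LEF transcription factors. In the absence of Wnt ligand, the scaffold Axin and the large protein APC hold β-catenin so that casein kinase 1α (encoded by *Csnk1a1*) and then glycogen synthase kinase 3 (GSK3α and GSK3β, encoded by *Gsk3a* and *Gsk3b*) phosphorylate its N terminus and so complete the degron, a short signal read by the ubiquitin ligase that sends the protein to the proteasome. Wnt binding to Frizzled and LRP receptors recruits Dishevelled and Axin to the membrane and stops this process. APC has a further role at the ends of microtubules in migrating cells, where it binds end-binding proteins, motors and certain RNAs. The degron is shown because it is the part of β-catenin that GSK3 phosphorylates and the ligase reads. The site at which casein kinase 1α primes β-catenin lies downstream of the stretch and is not included. Its coding sequence lies in exon 3 of the 15 exons of the longest annotated *Ctnnb1* transcript, at chr9:120950602-120950631 of GRCm38 on the plus strand, and capitals mark the codons of the serines and threonines of this stretch.
Ctnnb1 degron: gatTCTggaatccatTCTggtgccACCACC

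The genes differ widely in size. In GRCm38, *Apc* lies on the plus strand of chromosome 18 (34220924 to 34322552) and its annotated exons cover 16.1 kb, more than those of all but 1.79% of the RNAs with a known length. *Gsk3b* (chromosome 16, 38089001 to 38246084, plus strand) and *Csnk1a1* (chromosome 18, 61555274 to 61590061, plus strand) have 9.83 and 10.5 kb of exons. *Ctnnb1* (chromosome 9, 120929216 to 120960507, plus strand), *Axin1* (chromosome 17, 26138688 to 26195811, plus strand) and *Gsk3a* (chromosome 7, 25228258 to 25237851, minus strand) have 5.19, 3.83 and 2.90 kb. All values count reads over the whole gene, so that transcripts with different 3′UTRs are not told apart. Exons of *Ctnnb1* overlap those of *Ulk4* on the other strand and the microRNA gene *Mir7090* on its own strand, and exons of *Gsk3a* overlap those of the antisense RNA *9130221H12Rik*. Whether the authors' counting used strand is not given in the sources used here, so these reads may not be separated. The share of windows of 50 bases that recur in transcripts of other genes was 1.12% for *Gsk3a*, all of it in *Gm6275*, and 0.264% or less for each other member.

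Per sample, 18660287 to 31260831 reads were counted on the 12900 RNAs, and the level that 3 reads correspond to lay between 0.089 and 0.176 CPM (counts per 1000000), for counting error only. The label of a fibroblast line was checked against 7 fibroblast markers of the table, whose summed level was 14770 CPM or more in every sample. *Col1a1*, *Col1a2*, *Col3a1*, *Fn1*, *Pdgfra* and *Pdgfrb* were lower and *Vim* higher in protrusions of both lines, the latter at 0.55 and 0.52 on the log2 scale and, with quantile normalization, at −0.13 and −0.14 and not called. *Thy1* was not analysed here. The epithelial markers *Cdh1* and *Krt8* together had 10.7 to 20.4 CPM, and *Cd68*, *Cdh5* and *Pecam1*, markers of blood and endothelial cells, together had 3.78 to 8.54 CPM. Of the other markers of the lists, *Epcam*, *Krt18*, *Krt19*, *Ptprc*, *Kdr*, *Rbfox3*, *Snap25*, *Myod1* and *Myog* were not analysed here. The nuclear-retained RNAs *Malat1* and *Neat1*, a check of the fractions, had a summed level of 475.5 to 722.3 CPM in cell bodies and 159 to 313.9 CPM in protrusions. Replicate 4 of the cell bodies stood apart in each line: its Pearson's r with the other 3 replicates across RNAs was 0.990 to 0.991 in HBB cells and 0.984 to 0.990 in Pkp4 cUTR cells, where the others correlated at 0.993 or more with each other. Among protrusions r lay between 0.987 and 0.995. Calls of members that change without these samples are given with both values.

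Levels of different RNAs are compared per length of exon, in RPKM, the CPM per kilobase of exon. *Ctnnb1* was the most abundant member, with a median over the 16 samples of 74.9 RPKM (range 58.5 to 86.8). *Gsk3a* (median 34.3 RPKM, 26.6 to 40.1) and *Axin1* (32.1 RPKM, 26.4 to 35.9) followed, and their ranges overlapped. *Csnk1a1* had a median of 8.64 RPKM (7.18 to 9.75), *Gsk3b* one of 3.33 RPKM (2.74 to 3.74), and neither range touched that of a neighbour.

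*Apc* was the least abundant RNA of the complex, at a median of 0.411 RPKM (range 0.191 to 0.712). The median RNA of the table had 3.49 RPKM, with quartiles of 0.828 and 13.5 RPKM. With the longest transcript in place of all exons the order of the 6 RNAs was the same, but *Csnk1a1* then had 22.2 RPKM in place of 8.64. The depth behind the members differed accordingly. *Apc* rested on 81 to 217 reads per sample, a counting error of 6.79% to 11.1%, while *Ctnnb1* rested on 6092 to 13308 reads and an error of at most 1.28%.

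*Apc* RNA was enriched in protrusions of both lines, and no other member was called higher there with the scaling of the authors and no correction for base composition. It was 2.10-fold higher in protrusions than in cell bodies of HBB cells and 2.68-fold higher in Pkp4 cUTR cells. *Axin1* RNA was 0.863 times as high in protrusions as in cell bodies of Pkp4 cUTR cells, a small decrease that lost its call when any of 5 samples was left out, and the RNAs of β-catenin and of the 3 kinases did not pass the test in either line. These counts stand against a background in which fractions differed widely: at an adjusted p under 0.05 (limma, adjusted by Benjamini and Hochberg over all RNAs), 28.3% of all RNAs were higher and 28.9% lower in protrusions of HBB cells, and 28.2% and 28.5% in Pkp4 cUTR cells. Thus 1 of 6 members higher is no larger a share than that of all RNAs, and what the data give is a value for each RNA. Since whole fractions were sequenced, fewer cells or protrusions and less RNA in each of them cannot be told apart, and all levels are shares of the RNA of a sample.

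**Figure D1:**
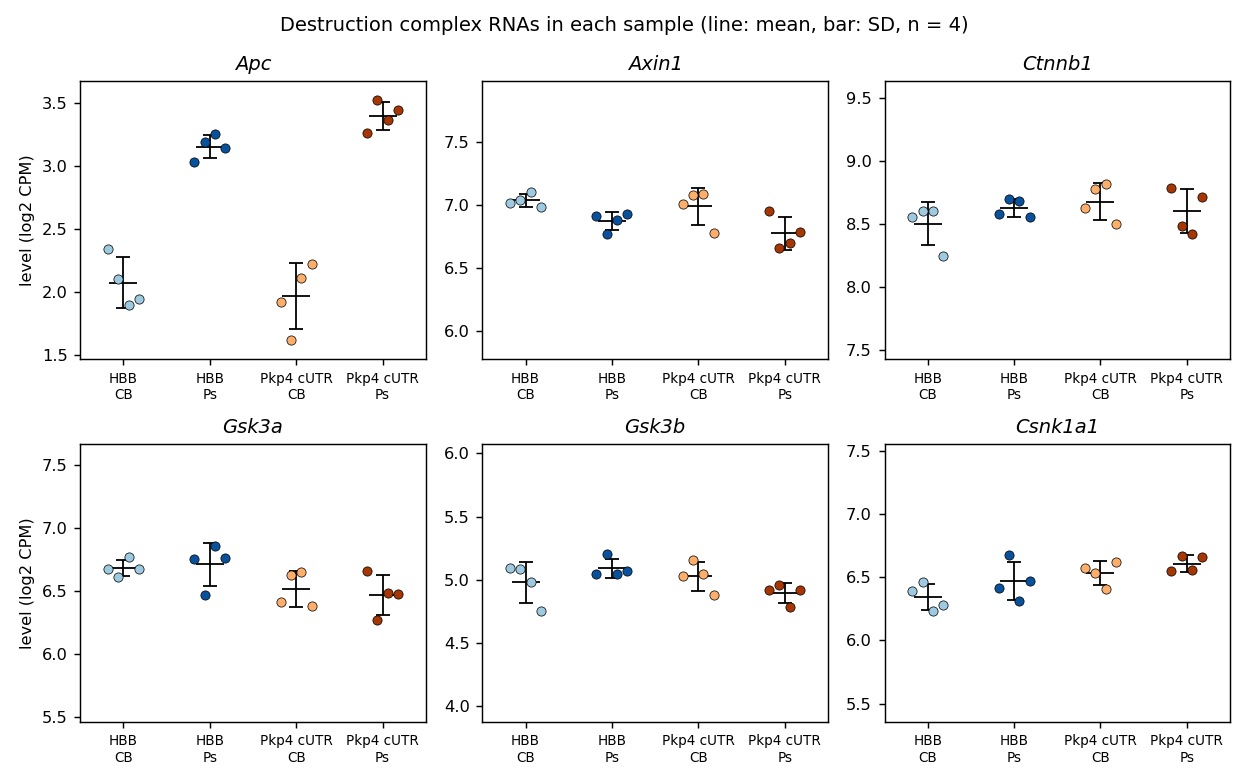
Level (log2 CPM) of each member in the 16 samples by group, with 1 point per sample, a line for the mean and a bar for the SD (n = 4); each panel spans the same number of log2 units. The *Apc* points of protrusions lie above all of those of cell bodies in both lines, and for the other members the groups lie close together.

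The level of *Apc* in replicates 1 to 4 of HBB cell bodies was 2.35, 2.10, 1.90 and 1.95 log2 CPM, from 157, 124, 125 and 85 reads. In HBB protrusions it was 3.03, 3.19, 3.25 and 3.15 log2 CPM, from 180, 186, 175 and 184 reads. All protrusion samples were thus above all cell-body samples of the line, as was the case, in either direction, for 52.2% of all RNAs. The mean level was 8.91 ± 0.58 CPM (SD, n = 4) in protrusions and 4.24 ± 0.61 CPM in cell bodies. The log2 fold change (log2(FC)) was 1.07 (standard error 0.12, 95% interval 0.81 to 1.33, adjusted p = 1.23e-06 from limma), the 512th highest of the 12900 RNAs.

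In Pkp4 cUTR cells, cell bodies had 1.93, 1.62, 2.11 and 2.22 log2 CPM of *Apc*, from 110, 81, 127 and 111 reads. Protrusions had 3.26, 3.52, 3.37 and 3.44 log2 CPM, from 217, 195, 204 and 211 reads. Again no protrusion sample was as low as any cell-body sample, a separation that 44.8% of all RNAs showed in this line. The means were 10.6 ± 0.81 CPM in protrusions and 3.97 ± 0.69 CPM in cell bodies (SD, n = 4). The log2(FC) was 1.42 (standard error 0.13, 95% interval 1.16 to 1.69, adjusted p = 9.58e-08 from limma), the 169th highest. *Apc* also passed the threshold used in the study for Ps-enriched RNAs, more than 2-fold and p under 0.05 before adjustment, which was met by 4.54% of RNAs in HBB and 5.07% in Pkp4 cUTR cells, and no other member passed it. Over the alternatives of analysis, samples left out included, the log2(FC) of *Apc* stayed between 0.84 and 1.17 in HBB cells and between 1.16 and 1.50 in Pkp4 cUTR cells, and its call was kept in each of them.

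Taken by replicate number, the log2 difference of *Apc* between protrusions and cell bodies was 0.68, 1.08, 1.36 and 1.20 in HBB cells, and 1.33, 1.90, 1.26 and 1.22 in Pkp4 cUTR cells. All 8 differences were above 0. Same-numbered protrusions and cell bodies deviated together only weakly in HBB cells and not in Pkp4 cUTR cells. They were treated as unpaired, so that these numbers name the samples and the spread among differences mixes that of both fractions. No other member had 8 differences of the same sign, and *Axin1* came closest with 7 below 0, as did *Csnk1a1* with 7 above 0.

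*Axin1*, the scaffold that brings the kinases to β-catenin, had 7.01, 7.04, 7.10 and 6.99 log2 CPM in HBB cell bodies and 6.92, 6.77, 6.88 and 6.93 in HBB protrusions. The samples of the fractions did not overlap, yet the difference was small: log2(FC) was −0.16, with a standard error of 0.08 and an adjusted p of 0.0849 from limma. The adjusted p became 0.0454 when the 4th Pkp4 cUTR cell-body sample, which enters this comparison through the shared spread alone, was left out. In Pkp4 cUTR cells, cell bodies had 7.01, 7.08, 7.09 and 6.78 log2 CPM and protrusions 6.95, 6.66, 6.70 and 6.79, where replicate 4 of the cell bodies lay within the range of the protrusions. The log2(FC) was −0.21 (standard error 0.08, 95% interval −0.38 to −0.05, adjusted p = 0.0259 from limma), a decrease of a size that 1 sample can decide: without either replicate 2 or replicate 3 of the protrusions, or any of replicates 1, 2 and 3 of the cell bodies, the adjusted p was 0.0551 to 0.0877. Without replicate 4 of the cell bodies of both lines, *Axin1* was lower in both, at −0.18 (adjusted p = 0.042) in HBB and −0.28 (adjusted p = 0.00249) in Pkp4 cUTR cells. Its direction turned once the trend of GC content and length over all RNAs had been removed from each sample, to a log2(FC) of 0.23 (adjusted p = 0.0021) in HBB and 0.14 (adjusted p = 0.0358) in Pkp4 cUTR cells. *Axin1* RNA is 56.6% G and C, against 44.3% for *Apc*.

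*Ctnnb1*, which encodes β-catenin, the target of the complex, had 8.56, 8.61, 8.60 and 8.25 log2 CPM in HBB cell bodies and 8.58, 8.70, 8.68 and 8.55 in HBB protrusions. Replicate 4 of the cell bodies was low and the groups overlapped. The log2(FC) was 0.13 (95% interval −0.08 to 0.33, adjusted p = 0.272 from limma). Values in Pkp4 cUTR cells were 8.62, 8.77, 8.82 and 8.50 log2 CPM in cell bodies and 8.78, 8.48, 8.42 and 8.72 in protrusions, each fraction covering nearly the range of the other, and the log2(FC) was −0.08 (95% interval −0.28 to 0.13, adjusted p = 0.514). A 2-fold difference in either direction lies outside both intervals. With the GC content and length trend removed the log2(FC) was 0.32 in HBB cells, where it was then called (adjusted p = 0.00114), and 0.14 in Pkp4 cUTR cells (adjusted p = 0.106).

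The kinase RNAs were likewise near equal between fractions. *Csnk1a1*, for the priming kinase, had 6.39, 6.47, 6.24 and 6.28 log2 CPM in HBB cell bodies and 6.42, 6.68, 6.32 and 6.47 in protrusions, with a log2(FC) of 0.13 (95% interval −0.04 to 0.29, adjusted p = 0.174 from limma). Pkp4 cUTR cells had 6.57, 6.53, 6.41 and 6.62 log2 CPM of *Csnk1a1* in cell bodies and 6.55, 6.67, 6.56 and 6.66 in protrusions, with a log2(FC) of 0.08 (−0.09 to 0.24, adjusted p = 0.427). The fractions overlapped in both lines.

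*Gsk3a* had 6.68, 6.61, 6.77 and 6.67 log2 CPM in HBB cell bodies and 6.75, 6.47, 6.86 and 6.76 in protrusions, with a log2(FC) of 0.03 (95% interval −0.17 to 0.22, adjusted p = 0.816 from limma). Values in Pkp4 cUTR cells were 6.41, 6.62, 6.65 and 6.38 log2 CPM in cell bodies and 6.66, 6.27, 6.49 and 6.47 in protrusions, with a log2(FC) of −0.04 (−0.24 to 0.15, adjusted p = 0.713). *Gsk3a* had the highest GC content of the members, 59.8%, and with the trend of GC content and length removed it was called higher in protrusions of both lines, with a log2(FC) of 0.37 (adjusted p = 0.00103) and 0.26 (adjusted p = 0.0134).

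*Gsk3b* had 5.10, 5.09, 4.98 and 4.75 log2 CPM in HBB cell bodies and 5.04, 5.20, 5.05 and 5.07 in protrusions, with a log2(FC) of 0.11 (95% interval −0.07 to 0.28, adjusted p = 0.279 from limma). Pkp4 cUTR cells had 5.03, 5.15, 5.04 and 4.88 log2 CPM of *Gsk3b* in cell bodies and 4.92, 4.96, 4.78 and 4.92 in protrusions, with a log2(FC) of −0.13 (−0.31 to 0.04, adjusted p = 0.185). The groups overlapped in both lines, though only replicate 4 of the Pkp4 cUTR cell bodies lay among the protrusions. Without replicate 4 of the cell bodies of both lines, *Gsk3b* was called lower in Pkp4 cUTR protrusions, at −0.18 (adjusted p = 0.0392). In HBB cells it was called higher with the GC content and length trend removed (0.19, adjusted p = 0.00546) and with quantile normalization (0.18, adjusted p = 0.0429).

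**Figure D2:**
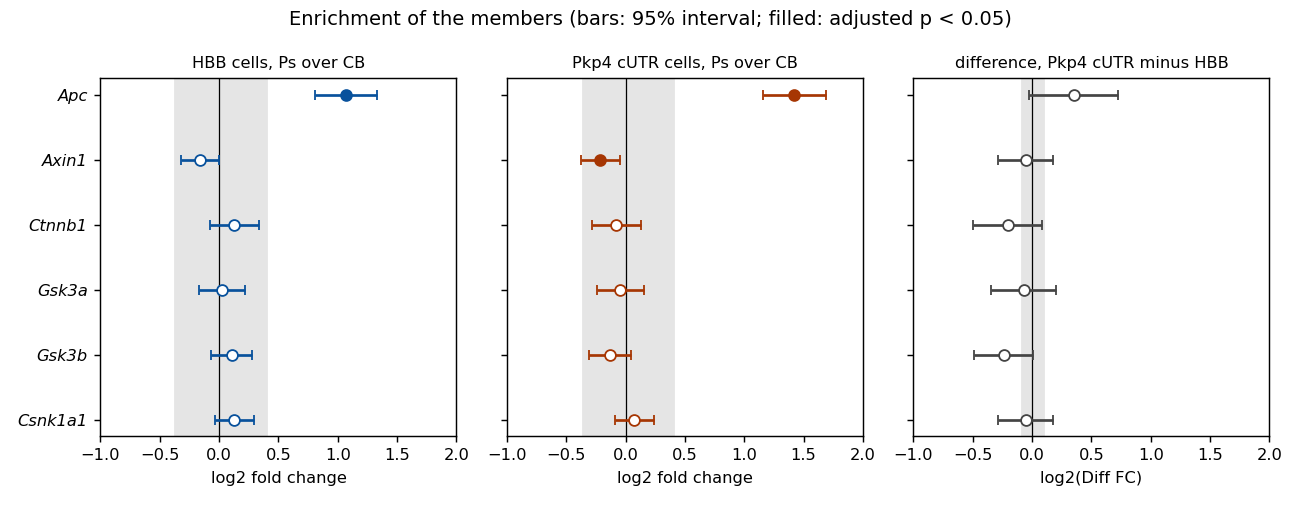
Log2 fold change of protrusions over cell bodies in each line, and the difference between the lines (log2(Diff FC)), for each member with its 95% interval; filled points have an adjusted p under 0.05 from limma and the grey band spans the quartiles of all 12900 RNAs. *Apc* lies at 1.07 and 1.42, outside the band, the other 5 members lie within it in both lines, and no difference between the lines is filled.

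The scaling of the libraries moves all these values together. The authors' factors lay between 0.828 and 0.974 in protrusions and between 1.07 and 1.11 in cell bodies. With library totals in their place the median log2(FC) of all RNAs became −0.23 in HBB and −0.25 in Pkp4 cUTR cells. The split of all calls then was 1940 higher and 5614 lower in HBB cells and 1797 and 5867 in Pkp4 cUTR cells, against 3655 and 3734, and 3633 and 3679, with the authors' factors. The values of the members with library totals were 0.84 and 1.16 for *Apc*, −0.40 and −0.48 for *Axin1*, −0.11 and −0.34 for *Ctnnb1*, −0.21 and −0.31 for *Gsk3a*, −0.13 and −0.40 for *Gsk3b* and −0.11 and −0.19 for *Csnk1a1* in HBB and Pkp4 cUTR cells. *Axin1* was then called lower in both lines, and *Ctnnb1*, *Gsk3a* and *Gsk3b* in Pkp4 cUTR cells. Relative to the shifted median, *Apc* remained far above the bulk of RNAs, while the other members lay on both sides of that median in HBB cells.

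**Figure D3:**
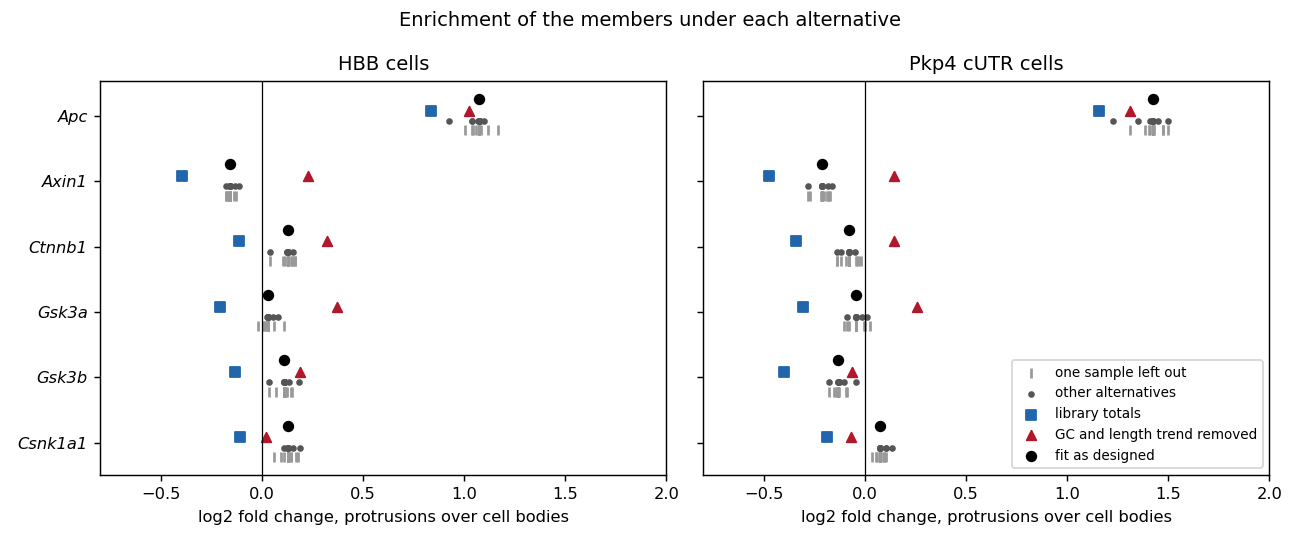
Log2 fold change of protrusions over cell bodies of each member in HBB (left) and Pkp4 cUTR cells (right) for the fit as designed (black), with library totals (blue squares), with the GC content and length trend removed (red triangles), with the other alternatives (dots) and with each sample left out (grey strokes). *Apc* stays above 0.8 throughout, whereas *Axin1*, *Ctnnb1* and *Gsk3a* lie on different sides of 0 with library totals and with the trend removed. In HBB cells *Gsk3b* does so too.

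Ratios of RNAs within a sample do not depend on the scaling of that sample. They can still depend on the trend of GC content and length, whose removal moved the members by unlike amounts. The ratios were not computed with that trend removed. *Apc* was compared with *Ctnnb1*, *Axin1* with *Apc*, and *Gsk3a* with *Gsk3b*, each between fractions and between lines, in 12 comparisons by two-sided exact permutation tests over 70 relabellings, where 0.0286 is the smallest p possible. An adjusted p under 0.05 would need most of the 12 comparisons to be at that smallest p, so that missing it says little about a single ratio. The log2 ratio of *Apc* to *Ctnnb1* reads in replicates 1 to 4 was −6.21, −6.50, −6.70 and −6.30 in HBB cell bodies and −5.55, −5.51, −5.42 and −5.41 in HBB protrusions. The samples did not overlap, and the ratio was 1.94-fold higher in protrusions (exact permutation p = 0.0286, Benjamini-Hochberg adjusted p = 0.0857 over the 12 comparisons).

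In Pkp4 cUTR cells the log2 ratio of *Apc* to *Ctnnb1* was −6.70, −7.15, −6.71 and −6.27 in cell bodies and −5.52, −4.96, −5.05 and −5.28 in protrusions, again without overlap. It was 2.83-fold higher in protrusions (exact permutation p = 0.0286, adjusted p = 0.0857). Per length of annotated exons, the ratio of *Apc* to *Ctnnb1* reads was 0.00875 in protrusions of this line and 0.00309 in cell bodies, at the mean of the log2 ratios. It is not a count of transcripts and depends on the lengths used. Even where *Apc* RNA was enriched, it thus remained far less abundant than *Ctnnb1* RNA.

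The log2 ratio of *Axin1* to *Apc* was 4.67, 4.94, 5.21 and 5.04 in HBB cell bodies and 3.89, 3.59, 3.63 and 3.78 in HBB protrusions. In Pkp4 cUTR cells it was 5.09, 5.45, 4.98 and 4.55 in cell bodies and 3.69, 3.14, 3.33 and 3.35 in protrusions. In each line every cell-body sample lay above every protrusion sample, with differences of −1.24 and −1.64 on the log2 scale (exact permutation p = 0.0286 and adjusted p = 0.0857 for each). Per length, *Axin1* exceeded *Apc* 131-fold in HBB cell bodies and 55.5-fold in HBB protrusions, and 136-fold and 43.8-fold in Pkp4 cUTR cells. The ratio shares *Apc* with the first, so that they are not separate evidence.

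The ratio of *Gsk3a* to *Gsk3b* did not separate the fractions. Its log2 value was 1.71 ± 0.18 in cell bodies and 1.62 ± 0.24 in protrusions of HBB cells (SD, n = 4, exact permutation p = 0.657), and 1.49 ± 0.09 and 1.58 ± 0.19 in Pkp4 cUTR cells (exact permutation p = 0.457). *Gsk3a* reads thus stood to *Gsk3b* reads in near the same proportion in each group, and per length *Gsk3a* exceeded *Gsk3b* 9.53-fold to 11.1-fold at the group means. None of the 6 comparisons between lines reached p = 0.05, and the lowest p among them was 0.0857 (exact permutation), for *Axin1* to *Apc* in protrusions and for *Gsk3a* to *Gsk3b* in cell bodies.

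**Figure D4:**
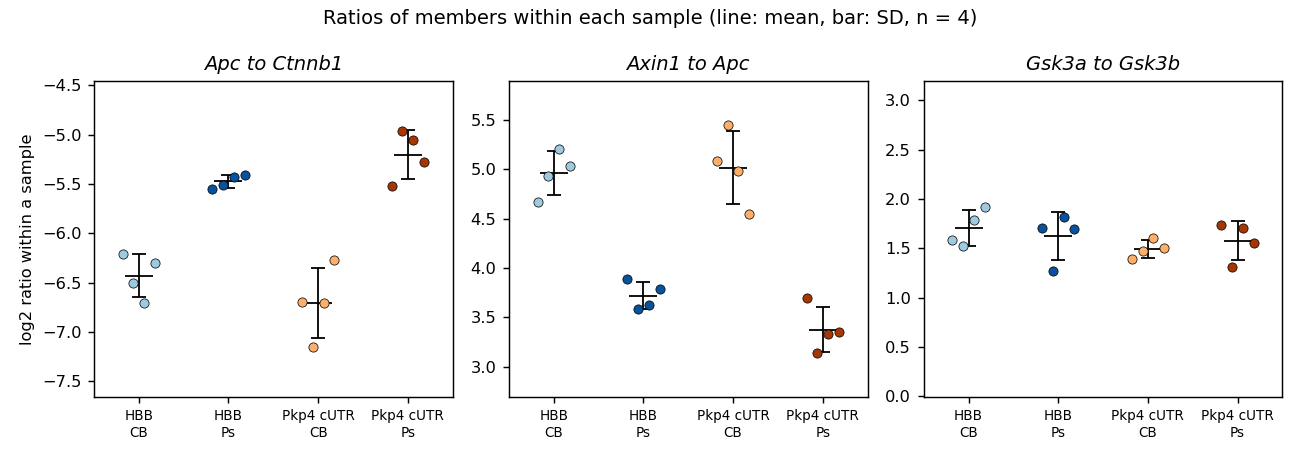
Log2 ratio of reads of *Apc* to *Ctnnb1*, *Axin1* to *Apc* and *Gsk3a* to *Gsk3b* in each sample by group, with 1 point per sample, a line for the mean and a bar for the SD (n = 4). In the left and middle panels protrusions and cell bodies of a line do not overlap, and in the right panel all 4 groups do.

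The Pkp4 cUTR line was next compared with the HBB line. No member differed in enrichment between the lines at an adjusted p under 0.05 from limma, and neither did any of the 12900 RNAs (0%), of which 300 (2.33%) had an unadjusted p under 0.05. A share of 0.05 would be that low without any difference, so these p-values may be too high. The lack of calls is thus weak evidence that enrichment was equal, and the reason for the low share was not tested. The log2(Diff FC) of *Apc*, its log2(FC) in Pkp4 cUTR cells minus that in HBB cells, was 0.35 (standard error 0.18, 95% interval −0.02 to 0.72, unadjusted p = 0.0634, adjusted p = 0.9997 from limma). An unadjusted p under 0.1, which was found for 5.8% of all RNAs, was found for *Apc* and *Gsk3b* among the members. When single samples were left out, the unadjusted p from limma ran from 0.0287 to 0.176 for *Apc* and from 0.0242 to 0.129 for *Gsk3b*. Over the other alternatives it ran from 0.0235 to 0.138 for *Apc* and from 0.00211 to 0.0768 for *Gsk3b*. For *Apc* it was 0.118 with library totals and 0.138 with the GC content and length trend removed. The adjusted p of both stayed at 0.9994 or more in all of these fits. *Gsk3b* had a log2(Diff FC) of −0.24 (95% interval −0.49 to 0.01, unadjusted p = 0.0563, adjusted p = 0.9997). For *Ctnnb1*, *Gsk3a*, *Axin1* and *Csnk1a1* the log2(Diff FC) was −0.21, −0.07, −0.05 and −0.05, with unadjusted p-values from limma of 0.153 to 0.643.

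Levels in cell bodies did not differ between the lines for any member by the adjusted p, against 3.42% of all RNAs higher and 5.55% lower in Pkp4 cUTR cells. *Csnk1a1* was nearest to the threshold, with cell-body values of 6.41 to 6.62 log2 CPM in Pkp4 cUTR and 6.24 to 6.47 in HBB cells and a log2 fold change between the lines of 0.19 (standard error 0.08, adjusted p = 0.147 from limma). For *Ctnnb1* and *Gsk3a* it was 0.18 (adjusted p = 0.304) and −0.17 (adjusted p = 0.298), for *Apc* −0.11 (adjusted p = 0.687), for *Axin1* −0.05 (adjusted p = 0.77) and for *Gsk3b* 0.04 (adjusted p = 0.799). All 6 pairs of groups overlapped, where 14.6% of all RNAs did not.

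In protrusions, 2.89% of all RNAs were higher and 4.26% lower in Pkp4 cUTR cells, and no member was among them. *Apc* was at 3.26 to 3.52 log2 CPM in Pkp4 cUTR and 3.03 to 3.25 in HBB protrusions, just without overlap, and its log2 fold change was 0.24 (95% interval 0.00 to 0.48, adjusted p = 0.224 from limma). *Gsk3b* also did not overlap, at 4.78 to 4.96 log2 CPM in Pkp4 cUTR and 5.04 to 5.20 in HBB protrusions, with a log2 fold change of −0.19 (adjusted p = 0.183). Non-overlapping protrusion groups were found for 13.7% of all RNAs. With the GC content and length trend removed, *Gsk3b* was called lower (−0.23, adjusted p = 0.00701). *Gsk3a* had the largest difference after *Apc*, −0.24 (adjusted p = 0.137), and without replicate 2 of the HBB protrusions it was −0.32 and called (adjusted p = 0.044). These comparisons share samples with those of the fractions, and their values are given side by side without being counted as separate evidence.

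The RNAs whose levels followed those of each member most closely over the 16 samples were looked for among the 10154 RNAs that averaged more than 1 log2 CPM. For *Apc* they were *Hsp90aa1*, a cytosolic chaperone (Pearson's r = 0.993), *Naa15*, a subunit of the N-terminal acetyltransferase NatA (r = 0.990), and *Strn3*, a striatin that acts as a PP2A regulatory subunit (r = 0.989). Like *Apc*, these were higher in protrusions, with log2(FC) of 1.33, 0.84 and 0.91 in HBB and 1.80, 1.16 and 1.37 in Pkp4 cUTR cells. The 16 points share 8 protrusion and 8 cell-body samples, so that such an r mostly repeats the difference between the fractions, and it is a description only.

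For *Axin1* the nearest RNAs were *Pip5k1c*, a lipid kinase, *Nploc4*, a cofactor of the p97 ATPase, and *Ptbp1*, a splicing regulator (r = 0.970, 0.963 and 0.955), all with log2(FC) between −0.19 and −0.33. For *Ctnnb1* they were *Pcyt1a*, *Kif13a* and *Dyrk1a* (r = 0.857, 0.856 and 0.853), for *Gsk3a* *Agpat1*, *Senp3* and *Reep6* (0.932, 0.909 and 0.909), for *Gsk3b* *Golph3*, *Ids* and *Nbr1* (0.872, 0.841 and 0.829), and for *Csnk1a1* *Spcs3*, *Mpp1* and *Sccpdh* (0.898, 0.896 and 0.891). No member was among the nearest RNAs of another. Between members, r ran from −0.825 for *Gsk3a* and *Csnk1a1* to 0.632 for *Ctnnb1* and *Gsk3b*, and that of *Apc* with *Ctnnb1* was 0.02, over the same 16 samples.

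The other RNAs of the pathway were taken from lists by role, with 161 distinct genes, of which 106 were in the table. In HBB cells 26 of the 106 were higher and 39 lower in protrusions, and in Pkp4 cUTR cells 26 were higher and 41 lower, against the shares of all RNAs given above. Their median log2(FC) was −0.15 and −0.11, where that of all RNAs was 0.01 in each line. The enrichment of *Apc* was exceeded by 1 of these 106 RNAs in HBB cells and by none in Pkp4 cUTR cells. That RNA, *Usp34*, was also the only one of them to be more than 2-fold higher. None of the 106 RNAs had an adjusted p under 0.05 for log2(Diff FC) from limma. No list was tested as a list, and all were chosen with earlier results of these data known.

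Closest to the members are their paralogs and scaffold partners, 6 of 10 of which were in the table. *Csnk1g3* and *Csnk1g2*, casein kinase 1 isoforms tied to receptor phosphorylation, were higher in protrusions, with log2(FC) of 0.78 and 0.29 in HBB and 0.95 and 0.28 in Pkp4 cUTR cells (adjusted p from limma at most 0.000812). *Csnk1d*, for casein kinase 1δ and the most abundant of the list at 52.2 RPKM, was lower at −0.22 in both lines (adjusted p = 0.00849 and 0.0077). With the GC content and length trend removed *Csnk1d* turned to 0.11 and 0.09, and with library totals *Csnk1g2* was not called in either line (0.048 and 0.016). *Csnk1e* had 0.10 and −0.08 and passed in neither. Between protrusions it was lower in Pkp4 cUTR than in HBB cells (−0.355, adjusted p = 0.00686 from limma), where 4.26% of all RNAs were lower. *Axin2* and *Apc2*, the closest relatives of *Axin1* and *Apc*, were not analysed here.

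The ubiquitin ligase that reads the degron, and the enzymes that turn over Axin, were represented by all 12 RNAs of their list, 7 of which were higher in protrusions in each line and 2 and 3 lower, with medians of 0.32 and 0.33. With library totals 4 were higher and 4 lower in HBB cells and 4 and 5 in Pkp4 cUTR cells. *Usp34*, a deubiquitinase of Axin, had the largest enrichment, 1.26 (standard error 0.09, adjusted p = 5.82e-09 from limma) in HBB and 1.32 (standard error 0.09, adjusted p = 6.3e-09) in Pkp4 cUTR cells. *Cul1* and *Skp1a*, the cullin and adaptor of the ligase, had 0.69 and 0.71 in HBB and 0.81 and 0.59 in Pkp4 cUTR cells. *Btrc*, for an F-box protein that binds the degron, did not follow them: its values were 0.09 and −0.06 and passed in neither line. *Fbxw11*, for another F-box protein of this list, was lower in Pkp4 cUTR cells (−0.27). That call was lost with median centring (−0.24), quantile normalization (−0.22) and the GC content and length trend removed (−0.15). *Siah1a*, of a separate β-catenin ligase, was at −0.25 (adjusted p = 0.0659) and −0.53 (adjusted p = 0.000712).

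Subunits of PP2A, a phosphatase that acts within the destruction complex, were mostly uncalled, with 3 of 11 higher and 1 lower in each line. *Ppp2r5c* and *Ppp2r5a*, both B56 regulatory subunits, were higher, at 0.57 and 0.37 in HBB and 0.44 and 0.28 in Pkp4 cUTR cells, and *Ppp2cb*, a catalytic subunit, passed in HBB cells alone (0.23, adjusted p = 0.00844, against 0.15, adjusted p = 0.0761). With library totals the balance of the list turned, to 1 higher and 5 lower in HBB and 0 higher and 6 lower in Pkp4 cUTR cells. *Ppp2r5a* then passed in neither line, *Ppp2cb* not in HBB (−0.0031) and *Ppp2r5c* not in Pkp4 cUTR cells (0.17). *Ppp2cb* was not called in HBB cells with the GC content and length trend removed either (0.043). The scaffold subunit *Ppp2r1a*, at 159 RPKM the most abundant of the list, had −0.05 and −0.03, and *Ppp2r5d* had −0.08 and 0.01, so that neither passed.

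**Figure D5:**
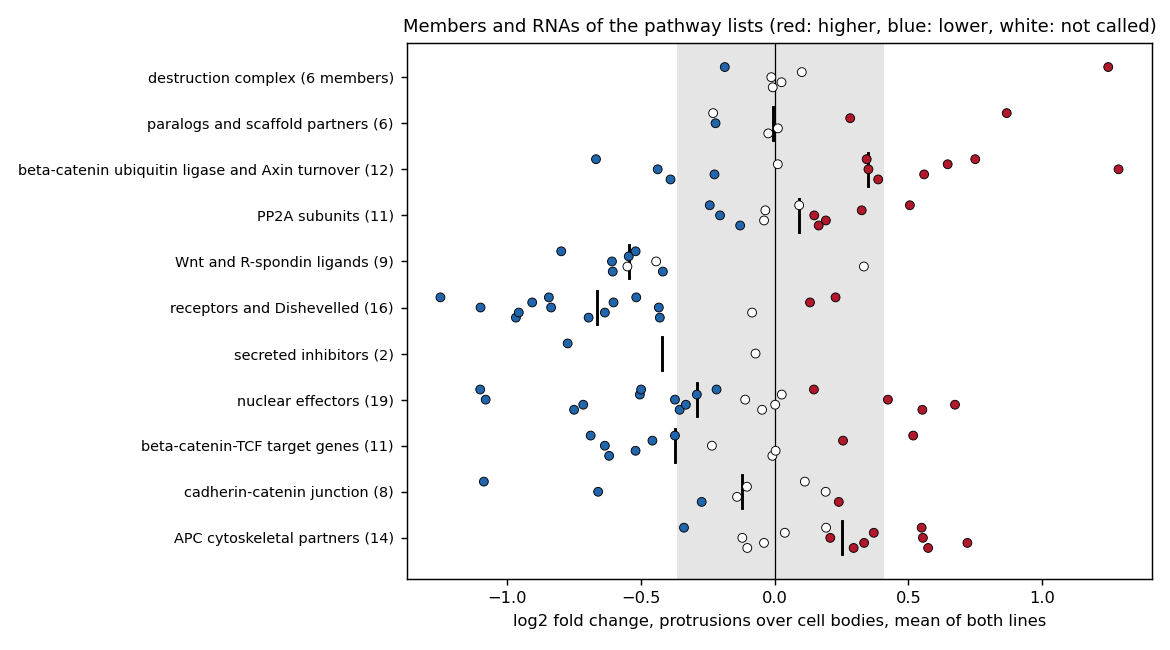
Log2 fold change of protrusions over cell bodies, averaged over both lines, for the 6 members and for the RNAs of each list found in the table (their number in brackets), with 1 point per RNA; red, blue and white points are higher, lower and not called at an adjusted p under 0.05, a stroke marks the median of a list and the grey band spans the quartiles of all RNAs. *Apc* and *Usp34* stand above 1.2, and most points of the receptors and Dishevelled lie to the left of the band.

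RNAs of the upstream part of the pathway were mostly lower in protrusions where they differed. Of the 16 receptor and Dishevelled RNAs in the table, 12 were lower in each line, none higher in HBB and 1 higher in Pkp4 cUTR cells, with medians of −0.65 and −0.68. With the GC content and length trend removed, 10 and 12 were lower and 1 and 2 higher. *Fzd7*, *Fzd1* and *Fzd2*, which encode Frizzled receptors, had log2(FC) of −1.20, −0.86 and −0.82 in HBB and −1.30, −1.06 and −0.85 in Pkp4 cUTR cells, and *Dvl2*, a Dishevelled, had −0.58 and −0.62, of which the HBB value was not called with the GC content and length trend removed (−0.12). The co-receptor RNA *Lrp6* was at 0.10 and 0.35, and passed in Pkp4 cUTR cells only (adjusted p = 0.0109 from limma), though not with library totals (0.084). Collagen, fibronectin and platelet-derived growth factor receptor RNAs, named above, moved in the same direction as the receptors, and the nuclear-retained RNAs did so too, at −1.85 and −1.27 for *Malat1* and −1.48 and −1.21 for *Neat1*. Their part in the values of the pathway was not tested.

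Of the ligands and the proteins that secrete them, 9 of 25 were in the table. None was higher and 5 and 6 were lower, with medians of −0.46 and −0.60. Once the GC content and length trend was removed, 3 were lower in each line and the medians were −0.21 and −0.31. *Wls*, which carries Wnt proteins to the surface, *Porcn*, which acylates them, and *Wnt9a* had −0.58, −0.46 and −0.46 in HBB and −0.63, −0.37 and −0.58 in Pkp4 cUTR cells. Of these, *Wnt9a* in HBB (−0.12) and *Porcn* in Pkp4 cUTR cells (−0.12) were not called once that trend was removed. *Wnt5a*, at 0.403 RPKM, had −0.41 (adjusted p = 0.0719 from limma) and −0.81 (adjusted p = 0.00101). Of the secreted inhibitors and their receptors, *Kremen1* was lower at −0.76 and −0.79.

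Downstream of β-catenin, 4 and 3 of 19 nuclear effectors were higher and 9 lower in each line. *Aes*, a shortened relative of the Groucho corepressors that was the most abundant at 312 RPKM, and *Ctnnbip1*, an inhibitor of the binding of β-catenin to TCF, were higher (0.68 and 0.41 in HBB, 0.67 and 0.44 in Pkp4 cUTR cells), and the corepressor *Tle2* was lower, at 0.434 times its cell-body level in HBB and 0.501 times in Pkp4 cUTR cells. *Chd8*, a chromatin remodeller, had −0.22 and 0.00 and passed in neither line. With the GC content and length trend removed 6 were higher in each line, and 6 and 7 lower. Of the target genes of β-catenin and TCF, 11 of 22 were in the table, of which 1 and 2 were higher and 6 and 5 lower.

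*Myc*, *Znrf3* and *Jun* were lower among these target genes (−0.66, −0.59 and −0.53 in HBB, −0.72, −0.68 and −0.51 in Pkp4 cUTR cells), as was *Cd44*, the most abundant at 28.6 RPKM (−0.49 and −0.43), and *Ccnd1* was higher (0.61 and 0.43), in Pkp4 cUTR cells not with library totals (0.17). *Tcf7* was lower in HBB cells (−0.49, adjusted p = 0.003 from limma) and had −0.26 (adjusted p = 0.0612) in Pkp4 cUTR cells. Without replicate 4 of the cell bodies of both lines, 7 and 6 of these targets were lower and 1 and 2 higher, and of the nuclear effectors 12 and 10 were lower and 4 and 3 higher. Of all 12900 RNAs, 3983 and 3971 were then lower and 3790 and 3993 higher.

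The proteins with which β-catenin works at junctions were spread around 0, with 2 and 1 of 8 RNAs higher and 3 lower in each line. *Cdh2* (N-cadherin) and *Vcl* (vinculin) were lower, at −1.07 and −0.64 in HBB and −1.10 and −0.68 in Pkp4 cUTR cells, and *Ctnnd1* (p120-catenin) was higher, at 0.28 and 0.20 (adjusted p = 0.00853 and 0.0499 from limma), and was not called with library totals. With library totals none of the 8 was higher and 4 and 5 were lower. *Jup*, plakoglobin, the closest relative of β-catenin and the most abundant of the list at 81.9 RPKM, was lower at −0.28 and −0.26 (adjusted p = 0.0242 and 0.0344), and with the GC content and length trend removed it turned to 0.20 and 0.17. *Ctnnal1* had 0.29 and 0.10 and passed in HBB cells alone (adjusted p = 0.0484). That call was lost with library totals (0.049), with quantile normalization (0.23), with the GC content and length trend removed (0.23) and without replicate 4 of the cell bodies (0.27). *Cdh1* had −0.04 and −0.24 and passed in neither. Between cell bodies it was higher in Pkp4 cUTR than in HBB cells (0.515, adjusted p = 0.0247 from limma), where 3.42% of all RNAs were higher.

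Of the partners of APC at the cytoskeleton, 7 of 14 were higher in each line and 1 lower, with medians of 0.16 and 0.31. With library totals 3 and 4 were higher and 3 lower, and with the GC content and length trend removed 9 and 11 were higher and none lower. *Mapre1*, for the end-binding protein EB1, had 0.59 in HBB and 0.51 in Pkp4 cUTR cells (adjusted p = 2.12e-07 and 1.55e-06 from limma). *Diap1*, for the formin mDia1 and the most abundant of the list at 17.8 RPKM, had 0.60 and 0.54 (adjusted p = 2.1e-05 and 6.98e-05). *Kifap3*, the adaptor that links APC to kinesin-2, had 0.55 and 0.89 (adjusted p = 0.000442 and 2.76e-06), and *Kif3a*, a motor subunit of the same kinesin, had 0.05 (adjusted p = 0.802) and 0.54 (adjusted p = 0.0022), the latter not called with library totals (0.28).

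Without replicate 4 of the cell bodies of both lines the counts of these lists moved by a few RNAs. In HBB and Pkp4 cUTR cells, 2 and 2 of the paralogs and scaffold partners, 3 and 4 of the ligase and Axin turnover RNAs, 2 and 2 of the PP2A subunits, 13 and 13 of the receptors and Dishevelled and 6 and 6 of the ligands were then lower. Higher were 4 PP2A subunits and 2 receptor RNAs in Pkp4 cUTR cells and 1 junction RNA in HBB cells. Of the cytoskeletal partners 2 were lower in HBB cells. Of all 12900 RNAs, 3790 were then higher and 3983 lower in HBB protrusions, and 3993 and 3971 in Pkp4 cUTR protrusions.

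*Kif3a* and *Kifap3* had the smallest p-values of log2(Diff FC) in this list. Their log2(Diff FC) was 0.50 (unadjusted p = 0.02, adjusted p = 0.9997 from limma) and 0.34 (unadjusted p = 0.0418, adjusted p = 0.9997), beside 0.35 for *Apc*. Both were higher in Pkp4 cUTR than in HBB protrusions (0.54, adjusted p = 0.0255, and 0.45, adjusted p = 0.0158), where *Apc* was not called. Of the 106 list RNAs, 5 were higher and 5 lower in that comparison, against 2.89% and 4.26% of all RNAs. *Kif3a* and *Kifap3* were named by the p of log2(Diff FC), which uses the same protrusion samples, so this is not separate evidence.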

How the data were processed

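RNA-Seq of 16 samples was used. The authors prepared TruSeq stranded libraries, aligned reads to mm10 with STAR 2.4.2a, counted them with Rsubread, and deposited limma-voom (limma 3.26.1) log2 CPM values of RNAs above a log2 CPM of 0.5 in at least 1 sample. Each value is the log2 of reads plus 0.5 over the scaled size of the library plus 1, times 1000000. The scaling method is not given in the sources used here. Reads were recovered from the steps between low values (100% of values within 0.01 of a whole number), and depth limits the precision of *Apc* most.

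Limma-voom (limma 3.58.1, R 4.3.3) was run on these reads, keeping the library sizes as scaled by the authors, with precision weights, 1 mean per group and Benjamini-Hochberg adjustment over 12900 RNAs, and calls were made at an adjusted p under 0.05. The fit was also run on simulated reads with the same spread for every RNA and independent samples. That setting is simpler than these data, so it does not check the fit under their spread. The replicates are described by the study as independent. Ratios were tested by exact permutation. Exon length (the union of annotated exons), GC content and positions came from GENCODE vM21 of GRCm38, in which 12767 RNAs (99.0%) were found, 446 of them by an older symbol. Samples were grouped by their labels. Samples of the same number in both lines deviated from their group means in the same way across 10154 RNAs (correlation 0.331 to 0.628 for cell bodies and 0.196 to 0.392 for protrusions), so a replicate block shared by the lines was an alternative fit. Same-numbered fractions did so weakly and unevenly in HBB cells (0.0455 to 0.389) and did not in Pkp4 cUTR cells (−0.362 to 0.00248). They were treated as unpaired in both lines, and a replicate block within each line was an alternative fit.

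Named from each list were up to 3 RNAs with the smallest adjusted p between fractions, up to 2 with the smallest p between lines and the most abundant per length, with a mean log2 CPM above 1. *Axin2*, *Apc2* and *Fbxw11* were named beside these. The members and lists were chosen with earlier results of these data known. The alternatives were other weights, scalings, pseudocounts and filters, replicate blocks, removal of a GC content and length trend, another threshold and the omission of each sample. The omission of replicate 4 of both cell-body groups was added after the data were seen.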

Additional observations from a re-analysis of the deposited data

Results flagged for a closer look

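Of 36 groups of 4 samples checked (the levels of the 6 members and the 3 ratios in each group), 2 held a sample far from the others, and chance gives about 1 in 20. *Ctnnb1* was at 8.25 log2 CPM in replicate 4 of the HBB cell bodies and at 8.56 to 8.61 in the other 3. *Gsk3b* was at 5.20 log2 CPM in replicate 2 of the HBB protrusions and at 5.04 to 5.07 in the other 3.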

How the results depend on the processing

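The enrichment of *Apc* kept its direction and its call in all alternatives run. With the GC content and length trend removed, 5 members (all but *Csnk1a1*) were called higher in HBB protrusions and 3 (*Apc*, *Axin1*, *Gsk3a*) in Pkp4 cUTR protrusions, none (0) was called lower in the latter, and 1 (*Gsk3b*) was lower in Pkp4 cUTR than in HBB protrusions. Of 12767 RNAs, 3444 were then higher and 2743 lower in HBB protrusions, and 3526 and 2780 in Pkp4 cUTR protrusions. Between protrusions, 663 RNAs were higher and 753 lower in Pkp4 cUTR cells. The same trend with the replicate block shared by the lines gave 5, 3, 0 and 1 members too, where the counts of all RNAs were 3670, 3806, 3017 and 994. *Axin1* turned under both to 0.23 in HBB and 0.14 in Pkp4 cUTR cells and to 0.051 between cell bodies, *Ctnnb1* to 0.14 in Pkp4 cUTR cells and 1.261e-05 between protrusions, *Gsk3a* to 0.26 and *Csnk1a1* to −0.071 in Pkp4 cUTR cells. With library totals 1 member was called lower in HBB (*Axin1*) and 4 in Pkp4 cUTR protrusions (all but *Apc* and *Csnk1a1*), against 5614 and 5867 of 12900 RNAs. *Ctnnb1*, *Gsk3a*, *Gsk3b* and *Csnk1a1* turned to −0.11, −0.21, −0.13 and −0.11 in HBB cells, and *Csnk1a1* to −0.19 in Pkp4 cUTR cells. Quantile normalization gave 2 members higher in HBB protrusions (*Apc*, *Gsk3b*), against 3661 of 12900 RNAs, 0.0031 for *Axin1* between cell bodies and 0.0085 for *Gsk3a* in Pkp4 cUTR cells. Median centring and the rule of a change above 2-fold left 0 members lower in Pkp4 cUTR protrusions. With median centring 3440 of 12900 RNAs were lower there. Without replicate 4 of both cell-body groups, 1 member was lower in HBB (*Axin1*) and 2 in Pkp4 cUTR protrusions (*Axin1*, *Gsk3b*), against 3983 and 3971 of 12900 RNAs, and *Axin1* was at 0.0065 between cell bodies. The cause of these changes was not tested.

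Leaving out each sample gave 0 to 1 members lower in protrusions of either line and 0 to 1 lower in Pkp4 cUTR than in HBB protrusions. Of 12900 RNAs, 3369 to 3853 were then lower in HBB and 3281 to 3893 in Pkp4 cUTR protrusions. Between protrusions, 360 to 668 were lower in Pkp4 cUTR cells. The values that turned in these runs ranged from −0.19 to 0.0024 for *Apc*, −0.081 to 0.023 for *Axin1* and −0.028 to 0.090 for *Gsk3b* between cell bodies, from −0.089 to 0.031 for *Ctnnb1* between protrusions, from −0.021 to 0.11 in HBB and −0.11 to 0.023 in Pkp4 cUTR cells for *Gsk3a*, and from −0.10 to 0.017 for log2(Diff FC) of *Csnk1a1*. The log2 ratio of *Axin1* to *Apc* between cell bodies ranged from −0.089 to 0.21, and that of *Gsk3a* to *Gsk3b* from −0.15 to 0.036 between HBB fractions and from −0.16 to 0.043 between protrusions. Of the 12 ratio comparisons 4 had an exact permutation p under 0.05, and 0 had with sign flips of the same-numbered differences (the replicate block), which with 4 pairs cannot give a p under 0.05. The replicate block alone, shared by the lines or within each line, gave the same counts of 1 member higher and 0 or 1 lower and changed no call of a member. With the shared block, 3800 of 12900 RNAs were higher and 3932 lower in HBB protrusions, and 3834 and 3932 in Pkp4 cUTR protrusions. With the block within each line these counts were 3582 and 3710, and 3571 and 3641. The planned tests by count models on the recovered reads were not run. Depth limits *Apc* most, with a counting error of up to 11.1% of its level.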
